A study of Mus musculus with 778 samples.

Results

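Chromatin remodelling ATPases are the motor subunits of the complexes that slide, space, evict or exchange nucleosomes. The transcripts of 10 of them, 10 of the 23201 genes in the count table, were followed through the growth of the mouse oocyte: *Smarca2* and *Smarca4* (SWI/SNF family), *Smarca5* (ISWI family), *Chd1*, *Chd3* and *Chd4* (CHD family), *Hells* and *Atrx* (heterochromatin remodellers), and *Ino80* and *Ep400* (INO80 family). The genes were chosen by name, and all 10 had a row in the table. Of these, 2 moved past the size rule used here when oocytes started to grow, beside 46.3% of the 8527 genes compared. *Ino80* rose from 2.10 to 18.02 counts per 1000000 UMIs (CPM), a call lost with medians over cells and with a minimum of 50 CPM. *Smarca4* fell from 77.2 to 38.2 CPM, by just over the 2-fold limit and not past it under other scalings. In the stage sums the other 8 stayed within 1.94-fold between their highest and lowest stage.

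The oocytes came from wild-type female ICR mice and had been picked singly by hand after washing off somatic cells. The 5 stages were told apart by diameter. Non-growing oocytes (NGO, under 20 μm) were taken from mice 3 to 4 days old, and growing oocytes of 3 sizes (GO1, 30 to 45 μm; GO2, 50 to 55 μm; GO3, 60 to 65 μm) and fully-grown oocytes (FGO, over 70 μm) from mice 3 to 4 weeks old, so that growth and mouse age cannot be told apart in any comparison with NGO. Single-cell RNA-seq with unique molecular identifiers (UMIs, tags that let each captured mRNA molecule be counted once) covered 46 NGO, 51 GO1, 26 GO2, 44 GO3 and 56 FGO cells.

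SWI/SNF motors (BRM from *Smarca2*, BRG1 from *Smarca4*) open nucleosomes at promoters and enhancers, and maternal BRG1 is known as a factor that the mouse embryo needs to switch on its genome. ISWI motors space nucleosomes evenly, CHD3 and CHD4 drive the NuRD complex that joins remodelling to histone deacetylation, and INO80 and p400 (from *Ep400*) act on nucleosomes that carry the histone variant H2A.Z. The growing oocyte builds the store of maternal mRNA and lays down DNA methylation in transcribed gene bodies before transcription stops in the fully-grown cell, and HELLS is known for its part in methylating repeats.

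In the NCBIM37 build, which is the mm9 assembly of the authors' alignment, *Smarca2* lies at chr19:26679650-26852811 (+), *Smarca4* at chr9:21420613-21508674 (+), *Smarca5* at chr8:83222406-83263396 (-), *Chd1* at chr17:15841931-15909574 (+) and *Chd3* at chr11:69156775-69182928 (-). *Chd4* lies at chr6:125045999-125080609 (+), *Hells* at chr19:39005405-39045541 (+), *Atrx* at chrX:102992954-103124736 (-), *Ino80* at chr2:119198778-119303423 (-) and *Ep400* at chr5:111093392-111199736 (-). All are protein-coding, with 22 (*Hells*) to 53 (*Ep400*) exons in the longest transcript. By its span, *Chd3* overlaps the protein-coding gene *Gm17305* on the other strand and *Atrx* the pseudogene *Gm14853* on its own strand. The strand of the counting is not given in the sources used here, and overlap of exons was not checked. Whether reads of these pairs were mixed is therefore not known.

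RefSeq gave a promoter for 8 of the 10 members (9 windows, 2 of them for *Chd4*), as the 250 bases upstream of the start in GRCm38.p6. The windows of *Ino80* and *Smarca4*, the members that passed the size rule, are printed together with that of *Atrx*, which differed from them in base composition. GC boxes (GGGCGG, or CCGCCC on the other strand), the motif of Sp1-type factors, are in capitals. The windows are chr2:119477688-119477937 (-) for *Ino80*, chr9:21615919-21616168 (+) for *Smarca4* and chrX:105929373-105929622 (-) for *Atrx*.
Ino80: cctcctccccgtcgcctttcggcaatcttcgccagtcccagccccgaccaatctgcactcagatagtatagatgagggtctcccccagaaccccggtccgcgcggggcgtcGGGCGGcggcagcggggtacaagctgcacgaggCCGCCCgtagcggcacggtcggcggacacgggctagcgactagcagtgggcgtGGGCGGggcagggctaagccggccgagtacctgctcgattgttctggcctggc
Smarca4: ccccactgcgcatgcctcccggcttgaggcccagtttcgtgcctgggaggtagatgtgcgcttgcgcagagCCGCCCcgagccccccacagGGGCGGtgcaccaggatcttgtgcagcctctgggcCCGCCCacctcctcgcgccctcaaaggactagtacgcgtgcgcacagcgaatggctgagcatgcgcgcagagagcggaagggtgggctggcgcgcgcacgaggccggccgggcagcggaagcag
Atrx: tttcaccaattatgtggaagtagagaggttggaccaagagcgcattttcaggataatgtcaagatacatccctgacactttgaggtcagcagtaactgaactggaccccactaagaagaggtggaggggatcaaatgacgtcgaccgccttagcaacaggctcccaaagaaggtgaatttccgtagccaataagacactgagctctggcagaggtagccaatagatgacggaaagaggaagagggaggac
The *Ino80* window held 3 GC boxes and 28 CpG dinucleotides, and that of *Smarca4* 3 GC boxes and 25 CpG dinucleotides. The *Atrx* window held no GC box, 6 CpG dinucleotides and 3 CCAAT boxes (CCAAT on either strand). The *Ino80* window held 1 CCAAT box and that of *Smarca4* none. Among 32851 windows of the same length, 32.7% held a GC box and 33.8% a CCAAT box, and the median number of CpG dinucleotides was 6. The other 5 members with an entry, *Smarca2*, *Smarca5*, *Chd4*, *Hells* and *Ep400*, each had 1 to 3 GC boxes in a window, and *Chd1* and *Chd3* had no entry.

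Each stage was measured as 1 pooled sample, because the cells came from 4 libraries and the table does not say which cell came from which. A level in CPM is the summed UMIs of a gene in all cells of the stage, per 1000000 UMIs of that stage. The size rule between 2 stages asked for a difference of 2-fold or more in CPM, with at least 10 CPM in the higher of them. There were no replicates and no test, and the 95% intervals given below are exact and cover counting error only. Stage totals were 24976634 (GO2) to 64311908 UMIs (FGO), and the median cell held 110146 UMIs in GO1 against 540432 to 972294 in the other stages. The 10 deepest cells carried 80.4% of the UMIs of GO1 and 73.2% of those of GO2. All 12 oocyte markers examined (such as *Zp3* and *Gdf9*) reached 10 CPM in every stage, with a summed level of 16657 to 30855 CPM. The 10 granulosa markers summed to 16.1 CPM in NGO, then 44.1 (GO1), 36.1 (GO2), 35.4 (GO3) and 20.5 (FGO), 8 stroma and theca markers to 1.05 to 8.65 CPM, and 8 blood and immune markers to 1.64 to 4.52 CPM with all 4 globin genes at 0. The 4 endothelial markers summed to 7.90 CPM in NGO and 28.8 to 51.2 in the other stages, mostly *Pecam1*, with *Cdh5* at 0 in 4 stages. The part of such RNA in the differences between stages was not tested.

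Of the 10 members, 2 passed the size rule from NGO to GO1, 1 upwards and 1 downwards, beside 46.3% of the 8527 genes that reached 10 CPM in either stage (20.6% upwards and 25.7% downwards). From GO1 to GO2, 1 member passed downwards, beside 3.03% of 7356 genes downwards and 3.14% in either direction. None of the 9 members that reached 10 CPM passed from GO2 to GO3, beside 4.35% of 7334 genes, or from GO3 to FGO, beside 5.96% of 7622 genes. None of 9 passed between the ends of growth, NGO and FGO, beside 27.3% of 8132 genes. The member left out in the last 3 comparisons was *Ino80*, which was under 10 CPM in all stages but GO1. The median difference over the members from NGO to GO1 was 0.34 on the log2 scale, against -0.15 over all genes that reached 10 CPM, and from NGO to FGO it was -0.04 over the 9 members at 10 CPM or more, and 0.10 with *Ino80* included, against -0.12. The scaling moved the median of all genes: from NGO to GO1 it was -0.02 with the size factors of DESeq2 and 0.05 with TMM factors. In the stage sums *Smarca2*, *Smarca4* and *Chd3* had their highest level in NGO. *Smarca5*, *Chd4*, *Atrx*, *Ino80* and *Ep400* had it in GO1, and *Chd1* and *Hells* in GO3. Of 8671 genes at 10 CPM or more, 45.7% were highest in NGO and 23.8% in GO1. For several members the highest stage changed with the setting. Without the 10 deepest cells *Chd4* was highest in GO2 (130.4 CPM, against 92.1 in GO1) and *Chd3* in GO1 (29.2, against 20.2 in NGO). With DESeq2 size factors *Smarca2* and *Hells* were highest in GO2. *Atrx* and *Ep400* were not highest in GO1 without the single oocyte described below.

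**Figure D1:**
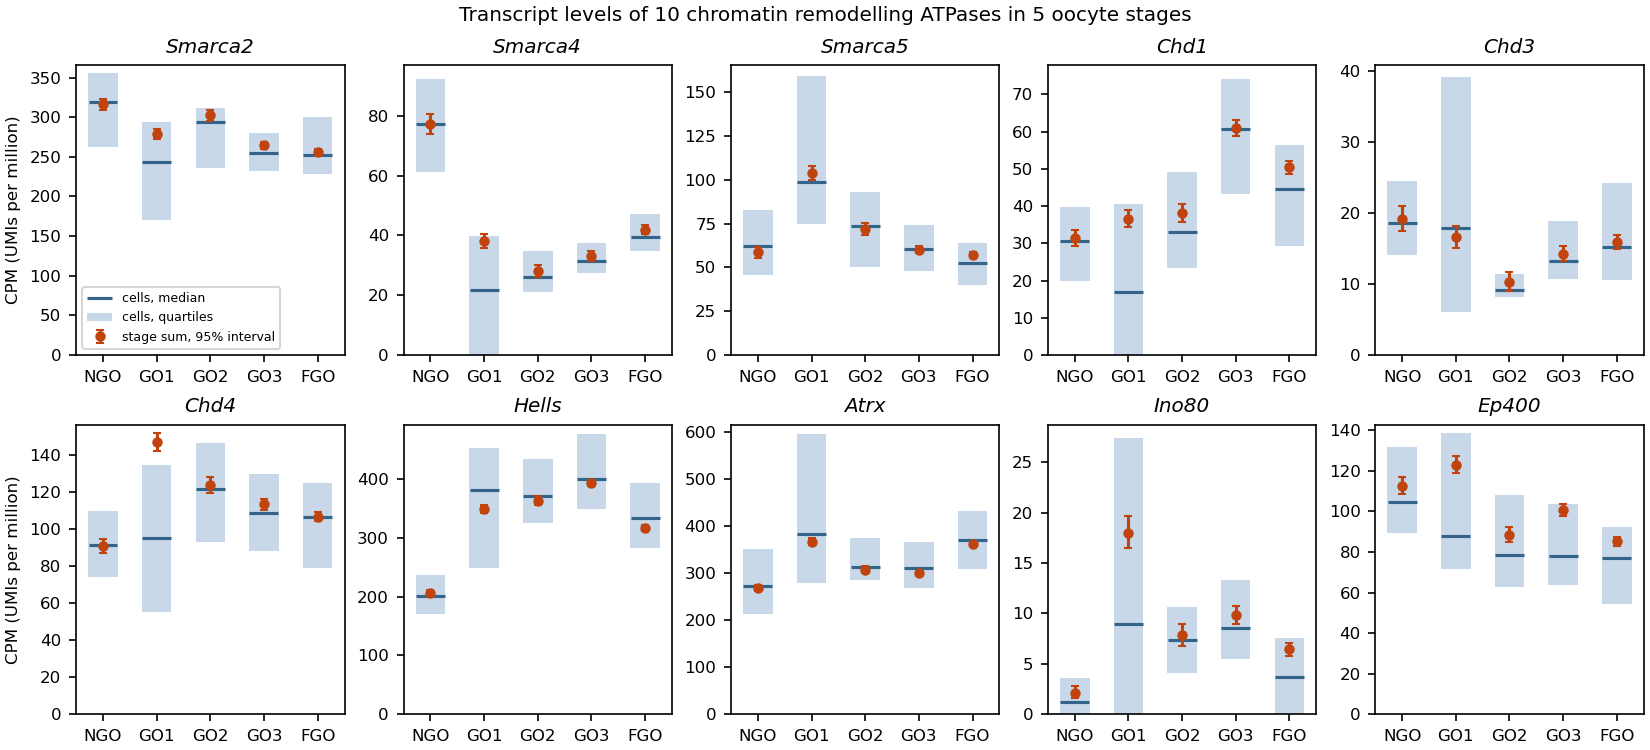
Level of each member (CPM, y axes from 0) in the 5 stages. Red points are the sums over the cells of a stage with 95% counting intervals, blue bars the quartile range over single oocytes and blue lines their median. *Smarca4* stands at 77.2 CPM in NGO and at 28.1 to 41.9 in the other stages, *Ino80* at 2.10 in NGO and 18.02 in GO1, and in GO1 the cells spread widely and the sum of *Chd4* (146.8 CPM) lies above the upper quartile of its cells (134.4 CPM).

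A single oocyte weighed on the GO1 values. It was picked as the GO1 cell with the most UMIs of *Ino80*, so its place for that gene follows from the choice. This cell, sixth of the GO1 cells in depth with 2380942 UMIs, carried 8.90% of the UMIs of the stage. It held more UMIs of *Ino80*, *Smarca4*, *Smarca5*, *Chd4*, *Atrx* and *Ep400* than any other GO1 cell, with 17.5% (*Atrx*) to 31.3% (*Ino80*) of the stage's UMIs of these genes. For the other 4 members its share was 6.29% (*Chd3*) to 11.3% (*Chd1*). Differences of members between NGO and GO1 are therefore also given without this cell where it held more UMIs of the gene than any other cell.

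*Ino80* encodes the motor of the INO80 complex. Its summed level was 2.10 CPM in NGO (53 UMIs), 18.02 in GO1 (482 UMIs), 7.81 in GO2 (195 UMIs), 9.84 in GO3 (490 UMIs) and 6.42 in FGO (413 UMIs). GO1 was the highest stage and NGO the lowest, and the intervals of GO2 (6.75 to 8.98) and FGO (5.82 to 7.07) overlapped. In single NGO cells the level ran from 0 over a median of 1.17 to 7.79 CPM, and 20 of 46 cells had no UMI of the gene. In GO1 cells it ran from 0 over a median of 8.98 to 124.5 CPM, and 18 of 51 cells had none. The median was 7.33 CPM in GO2 cells, 8.51 in GO3 cells and 3.70 in FGO cells, with highest values of 24.5, 21.6 and 21.9 CPM. The cells of NGO and GO1 overlapped at the low end. The highest GO1 value, 124.5 CPM, was above those of the other stages, but GO1 cells were shallow. Their median depth was 110146 UMIs, against 540432 in NGO, and the shallowest held 22279 UMIs. At such depth a few UMIs make a high CPM. Highest values and counts of cells without a UMI are therefore not comparable between these stages.

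*Ino80* rose 8.57-fold from NGO to GO1 (interval 6.44 to 11.6). The call was lost with a minimum of 50 CPM and with medians over cells, where GO1 stood at 8.98 CPM, under the minimum of the rule. Without the single deep oocyte the rise was 6.46-fold, and leaving out each of the 97 cells of the 2 stages in turn gave 6.46-fold to 9.30-fold. From GO1 to GO2 *Ino80* fell 2.31-fold (1.95 to 2.74), and without the single oocyte the difference was 1.74-fold and under the rule. FGO stood 3.05-fold (2.29 to 4.14) above NGO, but at 6.42 CPM the gene did not reach the minimum of the rule. Among the 8527 genes compared from NGO to GO1, the log2 difference of *Ino80* lay at percentile 96.7.

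**Figure D2:**
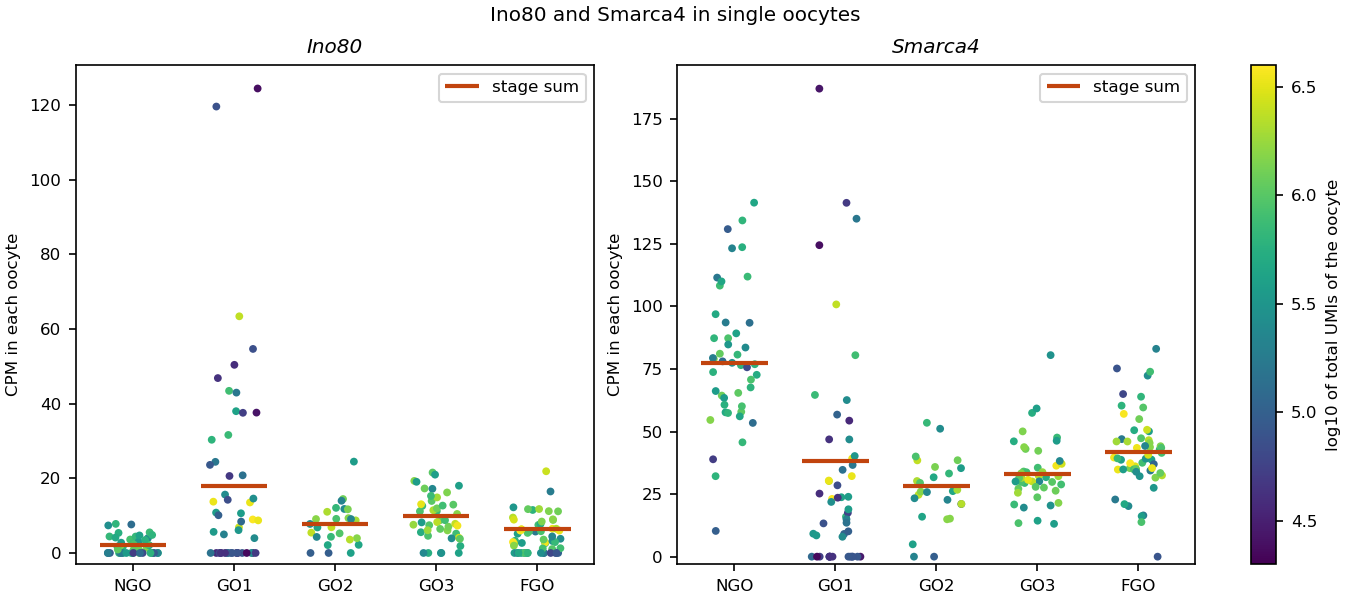
*Ino80* and *Smarca4* in each of the 223 oocytes (CPM, y axis), by stage (x axis), coloured by the log10 of the total UMIs of the cell, with the level of the stage sum as a red line. NGO cells lie at 0 to 7.79 CPM of *Ino80* and at 10.3 to 141.5 CPM of *Smarca4*; GO1 cells spread from 0 to 124.5 and from 0 to 187 CPM, and their highest values are in cells of low depth.

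*Ep400*, the motor of the TIP60-p400 acetyltransferase complex, belongs to the same family but followed another course. Its level was 112.7 CPM in NGO, then 122.9 (GO1), 88.3 (GO2), 100.6 (GO3) and 85.2 (FGO). The quartile ranges of the cells overlapped between all stages, and medians over cells lay between 77.1 CPM (FGO) and 104.6 CPM (NGO). GO1 was 1.09-fold above NGO (1.04 to 1.15), and without the single oocyte it was below NGO (103.6 against 112.7 CPM), so that the direction rests on that cell. The ratio of *Ino80* to *Ep400* UMIs within a stage, whose change depends neither on scaling nor on gene length, was 0.0187 in NGO, then 0.147 (GO1), 0.0884 (GO2), 0.0978 (GO3) and 0.0754 (FGO). This ratio rose 7.85-fold from NGO to GO1 (5.89 to 10.5) and was 4.04-fold (3.02 to 5.39) above NGO in FGO.

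*Smarca4* (BRG1) was highest before growth. The summed level was 77.2 CPM in NGO, then 38.2 (GO1), 28.1 (GO2), 33.04 (GO3) and 41.9 (FGO), a 2.75-fold span. Every NGO cell had UMIs of the gene, with 10.3 CPM in the lowest, a median of 77.2 and 141.5 in the highest cell. In GO1 cells the median was 21.9 and the highest value 187 CPM, and 14 of 51 cells had no UMI. The median depth of GO1 cells was 110146 UMIs, against 540432 in NGO. Medians were 26.1 CPM (GO2), 31.4 CPM (GO3) and 39.4 CPM (FGO). The quartile range of NGO cells (61.4 to 92.4 CPM) lay above the quartile ranges of all later stages, the nearest of which reached 47.1 CPM in FGO, but single cells overlapped.

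The level of *Smarca4* fell 2.02-fold from NGO to GO1 (1.87 to 2.18). Without the single deep oocyte the fall was 2.40-fold, and over all single cells left out it ran from 1.89-fold to 2.40-fold. The value lies close to the limit of 2-fold: on the log2 scale it was -1.01 with total UMIs, -0.91 with DESeq2 size factors and -0.85 with TMM factors, so that both scalings kept the direction and lost the call. With 26 cells per stage (-0.80) and in the deeper cells (-0.93) the call was lost as well, whereas means and medians over cells gave -1.29 and -1.82. FGO stood 1.84-fold below NGO (1.74 to 1.95), under the rule.

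*Smarca2* (BRM), the paralogue of *Smarca4* that takes its place in a share of BAF complexes, varied least of the 10 members between stages. It was at 316 CPM in NGO, then 279 (GO1), 302 (GO2), 265 (GO3) and 256 (FGO), a span of 1.24-fold, and all 223 cells had UMIs of it. Cell medians lay between 243 CPM (GO1) and 319 CPM (NGO), and the quartile ranges of the stages overlapped. The ratio of *Smarca4* to *Smarca2* UMIs went from 0.244 in NGO to 0.137 (GO1), 0.0929 (GO2), 0.125 (GO3) and 0.164 (FGO). The change from NGO to GO1 was 1.78-fold downwards in the sums (interval 0.516 to 0.608 for GO1 over NGO), under the rule for ratios. It was also under the rule with 26 cells per stage (1.72-fold), in the deeper cells (1.70-fold) and with means over cells (1.87-fold). It passed without the 10 deepest cells (2.34-fold), with medians over cells (2.69-fold) and in the shallower cells (2.82-fold). In the median cell *Smarca4* made up 20.1% of the UMIs of the pair in NGO, against 7.41% (GO1), 8.50% (GO2), 10.7% (GO3) and 12.8% (FGO).

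*Smarca5* (SNF2H), the motor of the ISWI complexes, was at 58.5 CPM in NGO, then 103.9 (GO1), 72.03 (GO2), 60.1 (GO3) and 56.9 (FGO). GO1 was 1.78-fold above NGO (1.67 to 1.89), below the limit in the sums, and 1.59-fold without the single oocyte. The gene passed the rule upwards in 4 other settings, at 1.13 on the log2 scale with 26 cells per stage, 1.07 in thinned cells, 1.03 with means over cells and 1.08 in the shallower cells. NGO, GO3 and FGO could not be ordered beyond their spread: cell medians were 61.9, 60.4 and 52.6 CPM, with overlapping quartile ranges. Single cells ran from 0 to 630 CPM in GO1 and from 0 to 136.3 in NGO, and both stages had 1 cell without a UMI of the gene.

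*Chd1*, which binds histone H3 methylated at lysine 4 and keeps the chromatin of embryonic stem cells open, had its highest level late. It was at 31.3 CPM in NGO, then 36.5 (GO1), 38.1 (GO2), 60.9 (GO3) and 50.4 (FGO). GO3 was 1.60-fold above GO2 (1.48 to 1.72) and FGO 1.61-fold above NGO (1.49 to 1.74), both under the rule, although GO3 passed it against GO2 in thinned cells (1.18 on the log2 scale) and in the shallower cells (1.24). The quartile range of GO3 cells (43.4 to 74.2 CPM) lay above those of NGO (19.8 to 39.9) and GO1 (0 to 40.6). In GO1, 19 of 51 cells had no UMI of *Chd1*, at a median depth of 110146 UMIs. The direction from NGO to GO1 was not settled, since the sums gave 0.22 on the log2 scale, the cell medians -0.86 and the shallower cells -1.32, the last of which passed the rule downwards. The shallower cells also passed upwards from GO1 to GO2 (1.24). *Smarca5* and *Chd1* peaked at different stages, and the ratio of their UMIs ran from 1.87 in NGO over 2.85 in GO1 and 1.89 in GO2 to 0.987 in GO3 and 1.13 in FGO. Its rise from NGO to GO1 was 1.52-fold in the sums, 1.72-fold with 26 cells per stage and 1.54-fold in the deeper cells. The rise passed 2-fold without the 10 deepest cells (2.35-fold), with means (2.80-fold) and medians over cells (2.89-fold) and in the shallower cells (5.26-fold).

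The NuRD motors *Chd3* and *Chd4* had their highest levels in different stages. *Chd4* was at 90.8 CPM in NGO, then 146.8 (GO1), 123.5 (GO2), 113.2 (GO3) and 106.6 (FGO). *Chd3* was at 19.2 CPM in NGO, then 16.6 (GO1), 10.3 (GO2), 14.2 (GO3) and 15.97 (FGO). Neither passed the rule in any of the 5 comparisons of stage sums. *Chd3* was -0.69 on the log2 scale from GO1 to GO2 in the sums, and passed downwards with means over cells (-1.53), without the 10 deepest cells (-1.57), in the shallower cells (-1.69) and in thinned cells (-2.07). The GO1 level of *Chd4* rested on deep cells: it was 1.62-fold above NGO in the sums (1.54 to 1.70), 1.43-fold without the single oocyte, and the cell medians were 95.2 CPM in GO1 and 91.03 in NGO. For *Chd3* the sums put GO1 below NGO (-0.21 on the log2 scale) and the means over cells above (0.42). The ratio of *Chd4* to *Chd3* UMIs was 4.73 in NGO, then 8.82 (GO1), 12.004 (GO2), 7.96 (GO3) and 6.67 (FGO). From NGO to GO1 it rose 1.87-fold in the sums (1.63 to 2.14), which did not reach 2-fold. The direction was not settled. GO1 over NGO was 2.06 with 26 cells per stage, 1.93 in the deeper cells and 1.09 with medians over cells. It was 0.81 with means over cells, 0.72 without the 10 deepest cells and 0.67 in the shallower cells. In the median cell *Chd4* made up 82.6% of the UMIs of the pair in NGO, the lowest stage of the ratio. This share was 83.8% in GO1, and 92.7% in GO2, the highest stage.

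*Hells* (LSH) and *Atrx*, which deposits histone H3.3 at heterochromatin with DAXX, were both lower in NGO than in any later stage. *Hells* was at 207 CPM in NGO, then 349 (GO1), 364 (GO2), 394 (GO3) and 317 (FGO). The quartile range of NGO cells (171 to 238 CPM) lay below those of the 4 other stages, the lowest of which began at 249.5 CPM in GO1. GO1 stood 1.69-fold above NGO (1.63 to 1.75) and FGO 1.54-fold (1.49 to 1.58), both below the limit in the sums, although GO1 passed the rule without the 10 deepest cells (1.06 on the log2 scale), and both directions were kept under every other way of summing or scaling and with any single cell left out. *Atrx* was at 268 CPM in NGO, then 367 (GO1), 307 (GO2), 300.2 (GO3) and 362 (FGO). GO1 was 1.37-fold above NGO (1.33 to 1.41), and 1.24-fold without the single oocyte. Without that cell GO1 (332.2 CPM) was below FGO (361.8 CPM) in the sums. Means over all cells put GO1 above FGO (448.5 against 378.6 CPM). No cell lacked UMIs of *Hells* or *Atrx*, and single cells ran from 44.9 to 1388 CPM of *Hells* and from 98.2 to 1134 CPM of *Atrx* over the 5 stages. The ratio of *Hells* to *Atrx* UMIs was 0.771 in NGO, 0.953 in GO1, 1.18 in GO2 and 1.31 in GO3, and then 0.877 in FGO.

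**Figure D3:**
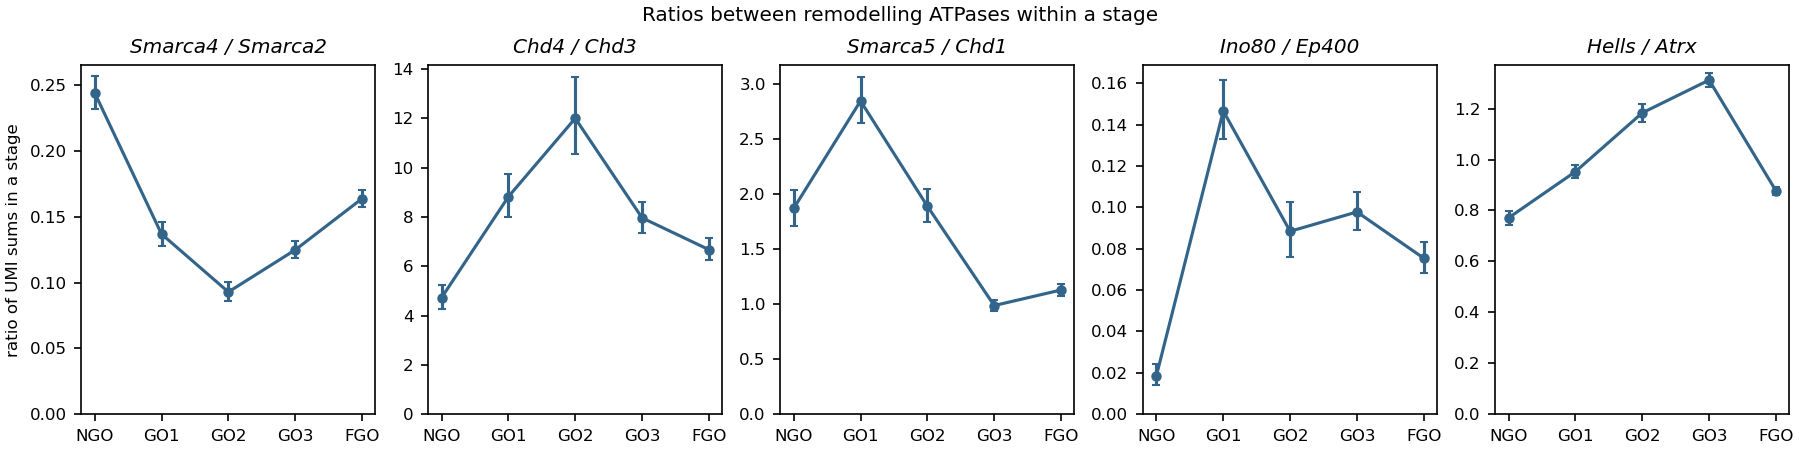
Ratio of the UMI sums of 2 members within each stage (y axes from 0, no unit), with 95% counting intervals. *Ino80* to *Ep400* goes from 0.0187 in NGO to 0.147 in GO1; *Smarca4* to *Smarca2* and *Chd4* to *Chd3* have their extremes in GO2 (0.0929 and 12.004), and *Hells* to *Atrx* its highest value in GO3 (1.31).

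Some of the settings differed in how much weight deep cells had, whereas the DESeq2 and TMM factors rescaled the same stage sums. From NGO to GO1, 6 of the 10 members kept their direction in 11 other settings, namely 9 ways of summing or scaling and the lowest and highest value with 1 cell left out (*Smarca2*, *Smarca4*, *Smarca5*, *Hells*, *Atrx* and *Ino80*). *Chd1*, *Chd3*, *Chd4* and *Ep400* changed sign in 5, 4, 1 and 4 of them. Over all 5 comparisons, 32 of the 50 values of the members kept their direction throughout.

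**Figure D4:**
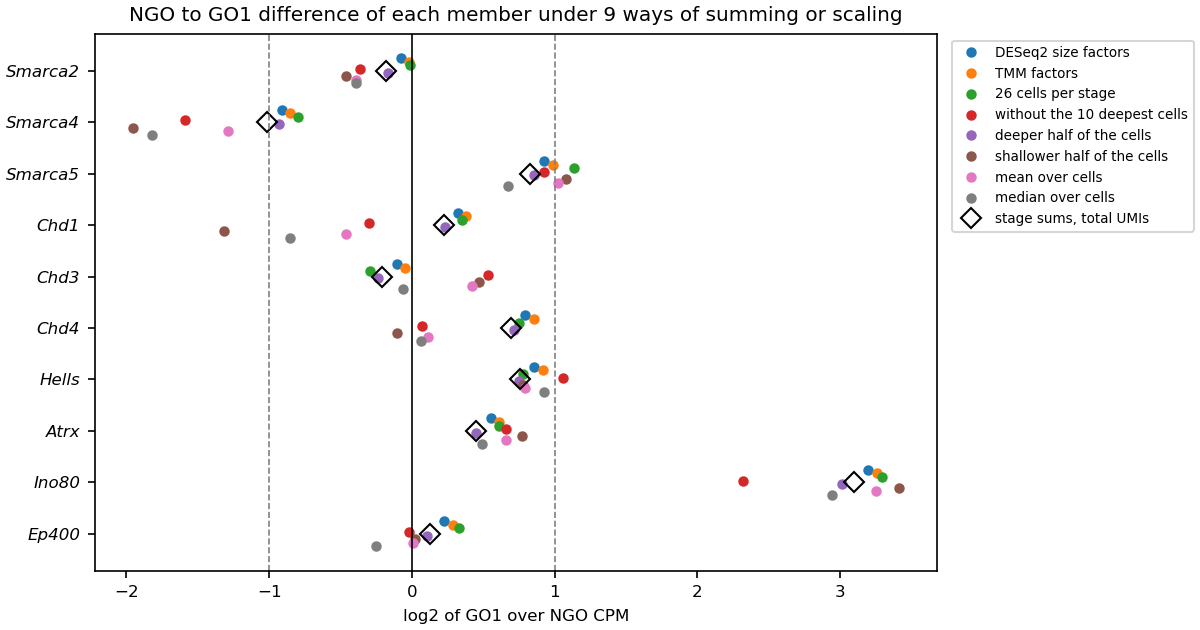
Difference from NGO to GO1 (log2 of GO1 over NGO CPM, x axis) of each member (y axis) for the stage sums (open diamonds) and 8 other ways of summing or scaling (coloured points). Dashed lines mark 2-fold. *Ino80* lies between 2.32 and 3.41 in all of those drawn, *Smarca4* between -1.95 and -0.80, and the points of *Chd1*, *Chd3*, *Chd4* and *Ep400* fall on both sides of 0.

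Patterns across the 5 stages were compared over 8671 genes as the root mean square difference of log2(CPM + 1) about its mean, for the 2 members whose levels spanned at least 2-fold. The genes most like *Smarca4* were *Fance* (a Fanconi anaemia gene; root mean square difference 0.023) and *Phf13* (a reader of methylated histone H3; 0.030). *Phf13* was at 159.2 CPM in NGO and 79.3, 60.6, 68.7 and 91.3 CPM in the later stages in order. Those most like *Ino80* were *Fam168a* (0.040) and *Cd5* (0.046), with *Fam168a* at 5.60 CPM in NGO and 39.2, 18.5, 23.2 and 15.8 CPM thereafter.

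The remaining genes of the remodelling machinery were described from 6 lists of 99 genes. Of the 80 that reached 10 CPM in NGO or GO1, 13 rose and 14 fell past the rule from NGO to GO1, 33.8% beside 46.3% of all genes, and the median difference was 0.23 on the log2 scale. From NGO to FGO, 5 of 79 rose and 4 fell, 11.4% beside 27.3% of all genes, with a median of 0.03. Without the single deep oocyte, which held 2.87% (*Brd8*) to 28.5% (*Cecr2*) of the GO1 UMIs of the genes that passed, 26 of the 27 still passed from NGO to GO1.

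Among 22 other Snf2-type ATPases, 14 reached 10 CPM, of which 3 rose and 1 fell from NGO to GO1, 28.6% beside 46.3% of all genes. Their median was 0.34 on the log2 scale. *Chd8*, a CHD motor, rose to 30.5 CPM (3.05-fold, 2.64 to 3.53, and 2.43-fold without the single oocyte), *Shprh*, which is also a ubiquitin ligase, from 11.2 to 30.0 CPM (2.69-fold), and its relative *Hltf* from 9.48 to 19.1 CPM (2.01-fold). *Chd1l*, a motor activated by poly(ADP-ribose), fell from 32.4 to 15.7 CPM (2.07-fold), a call that was lost with DESeq2 size factors (-0.95 on the log2 scale) and with TMM factors (-0.89). *Chd9* was at 79.9 CPM in NGO and 123.5 in GO1, under the rule in the sums, with cell medians of 64.1 and 161.6 CPM. From 84.6 CPM in GO2 it rose to 207 in GO3 (2.45-fold), and it stood 2.73-fold above NGO in FGO. *Srcap*, the third motor of the INO80 family, was at 7.58 CPM in NGO and 3.51 in GO1, under the minimum, as were *Chd2*, *Ercc6*, *Rad54l*, *Rad54l2* and *Zranb3*. *Chd6*, *Chd7*, *Smarcad1*, *Smarcal1*, *Btaf1*, *Ttf2*, *Rad54b*, *Ercc6l* and *Ercc6l2* reached the minimum and did not pass, with differences of -0.36 (*Ttf2*) to 0.82 (*Ercc6l*) on the log2 scale. *Chd5* had 3 UMIs in NGO and stood at 3.89 CPM in GO1, and *Smarca1* had 1 UMI in NGO and 8 in GO1.

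Among the partners of the motors, the share past the rule from NGO to GO1 was 40.0% for BAF and PBAF subunits, 55.6% for ISWI partners, 45.5% for NuRD subunits and 16.7% for INO80, SRCAP and TIP60 subunits, beside 46.3% of all genes. Of 20 BAF and PBAF subunits at 10 CPM or more, 2 rose and 6 fell from NGO to GO1, although the median was 0.37 on the log2 scale. *Arid2*, a subunit of PBAF, rose from 11.4 to 48.03 CPM (4.23-fold, and 3.54-fold without the single oocyte), and *Arid1a*, a subunit of canonical BAF, from 44.1 to 123.3 CPM (2.80-fold, and 2.26-fold without it). *Smarcd1* fell from 12.1 to 1.08 CPM (11.1-fold), and the PHD finger subunits *Dpf3* and *Dpf2* from 292 to 47.1 CPM (6.20-fold) and from 76.1 to 14.1 CPM (5.41-fold). Of 9 ISWI partners, 3 rose and 2 fell. *Cecr2* rose from 20.1 to 120.3 CPM (5.99-fold, and 4.70-fold without the single oocyte) and *Baz1a* (ACF1) from 39.96 to 99.99 CPM (2.50-fold, and 2.31-fold without it). *Bptf*, the large subunit of NURF, rose from 80.6 to 184 CPM (2.29-fold), and was just under the limit without the single oocyte (1.999-fold). The histone-fold subunits *Chrac1* and *Pole3* fell from 19.6 to 7.10 CPM (2.77-fold) and from 148.9 to 70.8 CPM (2.10-fold), and the call of *Pole3* was lost with both other scalings (-0.97 and -0.91 on the log2 scale).

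Of 11 NuRD subunits, 2 rose and 3 fell, with a median of -0.16. *Gatad2b* rose from 10.7 to 55.5 CPM (5.18-fold, and 4.43-fold without the single oocyte) and *Rbbp7*, a histone chaperone, from 1132 to 2325 CPM (2.05-fold). The deacetylase *Hdac1* fell from 86.5 to 12.2 CPM (7.07-fold), *Mta2* from 13.8 to 2.58 CPM (5.34-fold) and *Rbbp4* from 165 to 53.4 CPM (3.09-fold). Of 24 subunits of the INO80, SRCAP and TIP60 complexes, 3 rose and 1 fell, with a median of 0.16. *Epc2* rose from 4.56 to 29.4 CPM (6.45-fold, and 5.34-fold without the single oocyte) and *Mbtd1* from 24.1 to 139.1 CPM (5.76-fold, and 5.08-fold without it). *Brd8* rose from 101.6 to 263 CPM (2.59-fold). All 3 are TIP60 subunits, and the INO80 subunit *Mcrs1* fell from 169 to 74.5 CPM (2.27-fold). Of the 2 ATRX and HELLS partners at 10 CPM or more, *Cdca7*, which recruits HELLS to chromatin, fell from 26.8 to 11.6 CPM (2.30-fold).

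**Figure D5:**
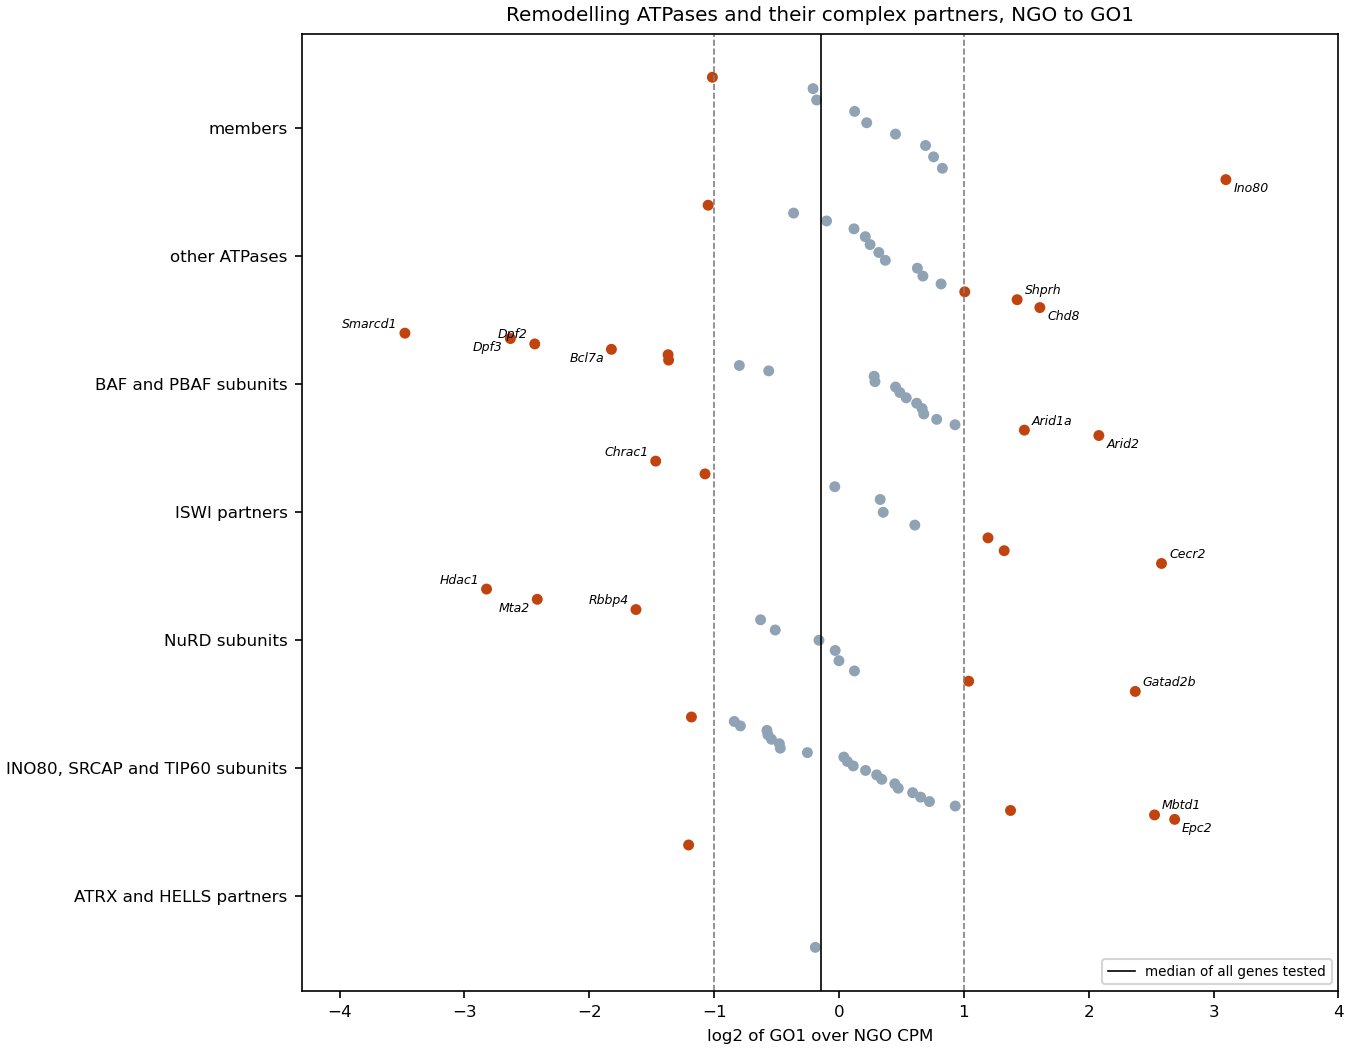
Difference from NGO to GO1 (log2 of GO1 over NGO CPM, x axis) of the members and of 6 lists of other remodelling genes (y axis), 1 point per gene that reached 10 CPM in either stage and red where it passed the size rule. The solid line is the median of all such genes (-0.15) and dashed lines mark 2-fold. *Ino80* has the highest value drawn (3.10) and *Smarcd1* the lowest (-3.48).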

How the data were processed

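Single oocytes were measured by single-cell RNA-seq in 4 libraries. The authors assigned trimmed reads to cells by barcode, used Tophat for alignment against the transcriptome of mm9, collapsed duplicates by UMI, kept cells within limits on detected genes, transcripts and spike-in share, and deposited raw UMI counts per gene and cell. The table held 223 cells, the number the study says it kept. The treatment of reads that map to several genes, which could blur paralogues, and the strand of the counting are not given in the sources used here. Cells have a stage in their name but no library, so each stage was 1 pooled sample with no test. No doublet caller was run, because cells were picked by hand. Intervals are exact (Poisson for sums, binomial split for ratios of sums) at 95%.

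A gene was compared where it reached 10 CPM in either stage, and 3 UMIs stood for a sum of 0. The text names all members, the other ATPases of the list, in each subunit list up to 3 genes with the largest rise and fall from NGO to GO1 past the size rule, and the 2 genes most like each member that spanned 2-fold (pseudocount 1). Members and lists were chosen with earlier results of these data known. The alternatives were DESeq2 1.42.0 size factors and edgeR 4.0.16 TMM factors (used for scaling only), 26 cells per stage, cells thinned to 20000 UMIs, means and medians over cells, leaving out the 10 deepest cells per stage, the cells above or those below the median depth of the stage, no minimum or one of 50 CPM, and a limit of 1.5-fold. Leaving out each cell in turn was added after seeing the data, as was leaving out the single deep GO1 oocyte for the other genes. Gene positions are from GENCODE vM1. Python 3.11.15, pandas 2.3.3, scipy 1.17.1 and R 4.3.3 were used. The chromatin accessibility and DNA methylation data were not analysed here.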

Additional observations from a re-analysis of the deposited data

How the results depend on the processing

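No paired analysis was possible because cells carry only a number within their stage and each stage is 1 pooled sample. From NGO to GO1, 2 members passed with all cells and total UMIs. With 26 cells per stage the 2 were *Ino80* and *Smarca5*. The count was 3 in thinned cells and with means over cells (*Smarca5*, *Ino80* and *Smarca4*) and without the 10 deepest cells (*Hells*, *Ino80* and *Smarca4*), 1 with DESeq2 size factors, with TMM factors and in the cells above median depth (*Ino80* in each), 1 with medians over cells or a minimum of 50 CPM (*Smarca4* in both), 4 in the cells below median depth (*Smarca5* and *Ino80* up, *Smarca4* and *Chd1* down) and 5 with a limit of 1.5-fold. The share of all genes past the rule was 46.3%, and 46.3% with DESeq2 and 46.1% with TMM factors, 41.2% with 50 CPM, 56.6% with means, 57.3% in thinned cells, 59.2% without the 10 deepest cells, 60.9% with medians, 61.7% in the shallower cells and 66.3% with 1.5-fold. From GO1 to GO2 it was 1 member (*Ino80*) beside 3.14% of all genes, and became 0 with medians (22.4% of all genes) or a minimum of 50 CPM (0.968%), 2 (*Chd3* and *Ino80*) with thinned cells (24.6%), means over cells (16.5%) or a limit of 1.5-fold (14.7%), and 3 in the shallower cells (30.3%), with *Chd1* up and *Chd3* and *Ino80* down. Without the 10 deepest cells the 1 member was *Chd3* (17.7%). From GO2 to GO3 it was 0 beside 4.35%, and became 1 (*Chd1*) with thinned cells (15.9%), in the shallower cells (12.3%) or with 1.5-fold (13.5%). From NGO to FGO it was 0 beside 27.3%, and became 1 (*Ino80*) without a minimum (40.2%) and 3 (*Chd1*, *Hells* and *Smarca4*) with 1.5-fold (51.2%). Of the other remodelling genes, 27 passed from NGO to GO1 (beside 46.3% of all genes). The count was 15 with 50 CPM (beside 41.2%), 42 in the shallower cells (61.7%) and 44 with 1.5-fold (66.3%). From NGO to FGO 9 passed (beside 27.3% of all genes), and 14 with medians (beside 32%), 20 with thinned cells (33.9%) and 31 with 1.5-fold (51.2%). Of the 5 ratios, 1 passed from NGO to GO1 (*Ino80* to *Ep400*). It was joined by *Chd4* to *Chd3* with 26 cells per stage and by *Smarca5* to *Chd1* with means, which made 2 in each. With medians, in the shallower cells or without the 10 deepest cells, 3 passed, with *Smarca4* to *Smarca2* and *Smarca5* to *Chd1* added. With 1.5-fold 4 passed, all but *Hells* to *Atrx*. From NGO to FGO 1 passed, and 2 with 1.5-fold. The cause of these shifts was not tested. Thinned cells gave no count of ratios and no value of *Ino80* from NGO to FGO. Thinned NGO cells held 0 UMIs of *Ino80*, and its level in thinned FGO cells (1.79 CPM) was below that of 3 UMIs. The value of *Ino80* from NGO to GO1 in thinned cells used the 3 UMIs that stand for a sum of 0. Low depth limits *Ino80* most, with 53 UMIs over all NGO cells.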

Other observations

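Within several complexes, subunits that are paralogues or partners of each other stood in another ratio in GO1 than in NGO. These pairs were chosen after their values were seen, and their ratios of UMIs within a stage are a description. The histone chaperones *Rbbp7* and *Rbbp4*, both found in NuRD, stood at a ratio of 6.87 in NGO, then 43.5 (GO1), 57.03 (GO2), 45.6 (GO3) and 29.8 (FGO), and *Rbbp7* had more UMIs than *Rbbp4* in every cell. The deacetylases *Hdac2* and *Hdac1* stood at 0.635 in NGO, then 4.02 (GO1), 2.36 (GO2), 2.31 (GO3) and 1.04 (FGO). *Hdac2* had more UMIs than *Hdac1* in 10 of 46 NGO cells, 42 of 51 GO1 cells, 24 of 26 GO2 cells, 43 of 44 GO3 cells and 28 of 56 FGO cells. The BAF subunits *Smarcd2* and *Smarcd1* stood at 2.91 in NGO, 55.7 in GO1 (interval 38.6 to 83.5), 82.9 in GO2 (11 UMIs of *Smarcd1*), 17.9 in GO3 and 10.9 in FGO. *Arid2* and *Pbrm1*, both particular to PBAF, stood at 0.442 in NGO, then 2.76 (GO1), 2.07 (GO2), 1.26 (GO3) and 1.07 (FGO). The ACF1 gene *Baz1a* and the histone-fold gene *Chrac1* stood at 2.03 in NGO, 14.1 in GO1 and GO2, 6.40 in GO3 and 3.90 in FGO. In each of the 5 pairs, chosen with these values known, the ratio in FGO lay between that in NGO and that in GO1. The GO1 ratios depended on how cells were weighted. With means over cells they were 33.6 for *Baz1a* to *Chrac1*, 7.78 for *Hdac2* to *Hdac1* and 39.9 for *Smarcd2* to *Smarcd1*.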
